A study of Mus musculus with 17 samples.

Results

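The genes followed here were 10: the ephrin ligands Efna1, Efnb1 and Efnb2, the Eph receptor Ephb4, the class 3 semaphorins Sema3f and Sema3g, the plexins Plxna2 and Plxnd1, and the receptors Robo4 and Unc5b. They were named as vascular guidance ligands and receptors, with earlier results of these data known, and make up 10 of the 49585 gene identifiers in each table. All 10 were matched by symbol, and all 10 passed the filter on low counts at 2 weeks, at 4 weeks and in the joint fit. All 10 are protein coding genes, at these positions of GRCm38 (GENCODE M21). The ligands lie with Efna1 at chr3:89271733-89281142 on the minus strand, Efnb1 at chrX:99136130-99148991 on the plus strand, Efnb2 at chr8:8617434-8661242 on the minus strand, Sema3f at chr9:107681500-107710475 on the minus strand and Sema3g at chr14:31217860-31230352 on the plus strand. The receptors lie with Ephb4 at chr5:137350109-137378669 on the plus strand, Plxna2 at chr1:194618218-194816869 on the plus strand, Plxnd1 at chr6:115954811-115995005 on the minus strand, Robo4 at chr9:37401897-37415115 on the plus strand and Unc5b at chr10:60762593-60831581 on the minus strand.

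The libraries came from endothelial cells of mouse bone marrow and addressed what loss of Endoglin does to the marrow vessels. Endoglin, encoded by Eng, is a co-receptor of endothelial cells for ligands of the TGF-beta and BMP family. KO animals were Cdh5:CreERT2-Eng f/f: tamoxifen activates a Cre recombinase expressed from the endothelial Cdh5 promoter, which removes exons 5 and 6 of Eng from between loxP sites. WT animals were also injected with tamoxifen, and whether they carried the Cre transgene or the floxed allele is not given in the sources used here, nor is the strain. The mice received tamoxifen when 8 weeks old and marrow was harvested after another 2 or 4 weeks, giving 4 WT and 4 KO libraries at 2 weeks (2 female and 2 male in each) and 5 WT (2 female, 3 male) and 4 KO (1 female, 3 male) at 4 weeks. Per the protocol in the labels the sort kept cells lacking CD45 and Ter119 and carrying CD31 and Sca1, while the series' design text does not list Sca1. SmartSeq2, which amplifies whole polyadenylated transcripts without molecular identifiers, was used, so counts are of amplified fragments and a floor of 3 counts covers counting error only. The labels do not say whether each library is 1 animal or a pool, and p-values measure only the spread between these libraries. Libraries are named by the sex and number in their titles; 1 female 4-week WT library has no number and is called f.

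Ephrins are cell-surface ligands for Eph receptor kinases, and in vessels ephrin-B2 on arterial and EphB4 on venous endothelium mark the boundary between the vessel types. Class 3 semaphorins are secreted and act through plexins, mostly with neuropilins as co-receptors, to repel or restrain endothelial sprouts. Robo4 and Unc5b are endothelial members of receptor families first known from axon guidance, and both are linked to the stability of the vessel wall.

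Total counts ran from 26705337 to 40882715 per library at 2 weeks and from 20477400 to 33726630 at 4 weeks, and the floor of 3 counts equals 0.0734 to 0.146 CPM (a gene's count scaled by its library's total). The time points stood apart: 10886 to 13583 genes were detected at 2 weeks and 15996 to 21235 at 4 weeks, with 22.2% to 29.5% and 4.66% to 8.99% of counts from mitochondrial genes. Time and library set cannot be told apart. Eng was lower in the KO libraries, at 225 to 347 CPM against 705 to 1307 CPM at 2 weeks and at 274 to 1647 CPM against 2400.0 to 2735 CPM at 4 weeks. The groups did not overlap, although KO m2 at 4 weeks kept the highest KO level, 1647 CPM. Averaged over both times, the KO effect on Eng was -1.83 ± 0.31 on the log2 scale (SE, edgeR quasi-likelihood test, adjusted p = 0.0455). That call was lost in 15 of the alternatives, with adjusted p up to 0.188, while the effect stayed between -2.15 and -1.70. The 9 endothelial markers other than Eng (Pecam1, Cdh5, Kdr and others) were detected in every group, summing at 2 weeks to 3926 to 5413 CPM in WT and 3199 to 3879 CPM in KO, and at 4 weeks to 9211 to 11570 CPM in WT and 8467 to 10820 CPM in KO. The sum of every KO library of 2 weeks was thus below that of every WT library of that time, though narrowly (3879 against 3926 CPM). Of the 9 markers only Tie1 separated the genotypes there, at 223 to 550 CPM in KO and 602 to 936 CPM in WT, and the others overlapped. At 2 weeks KO m2 and m3 held neutrophil transcripts, with the 10 listed genes summing to 4162 and 3150 CPM against 22.7 to 237.5 CPM in the other 2-week libraries. The erythroid list summed to 61.5 to 233 CPM in WT and 278 to 1251 CPM in KO at 2 weeks, and to 172 to 1303 CPM in WT and 621 to 2916 CPM in KO at 4 weeks; the part of the endothelial, neutrophil or erythroid lists in the KO values below was not tested.

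None of the 10 genes was called between KO and WT at either time, where the test called 0% of all genes and not Eng itself (log2 fold change -1.96 at 2 weeks and -1.72 at 4 weeks). Efna1 was the most abundant per length in every group, followed by Robo4 and Ephb4. A difference was called between the 2-week and 4-week library sets, in which time and set cannot be told apart. In WT, Efna1 and Ephb4 were 2.21-fold and 2.45-fold higher at 4 weeks. There 6.92% of all genes were called and the median gene was itself higher, by a log2 of 0.42. The genes with the lowest p-values between genotypes, Robo4 at 2 weeks and Ephb4 at 4 weeks, did not pass adjustment over all genes.

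**Figure D1:**
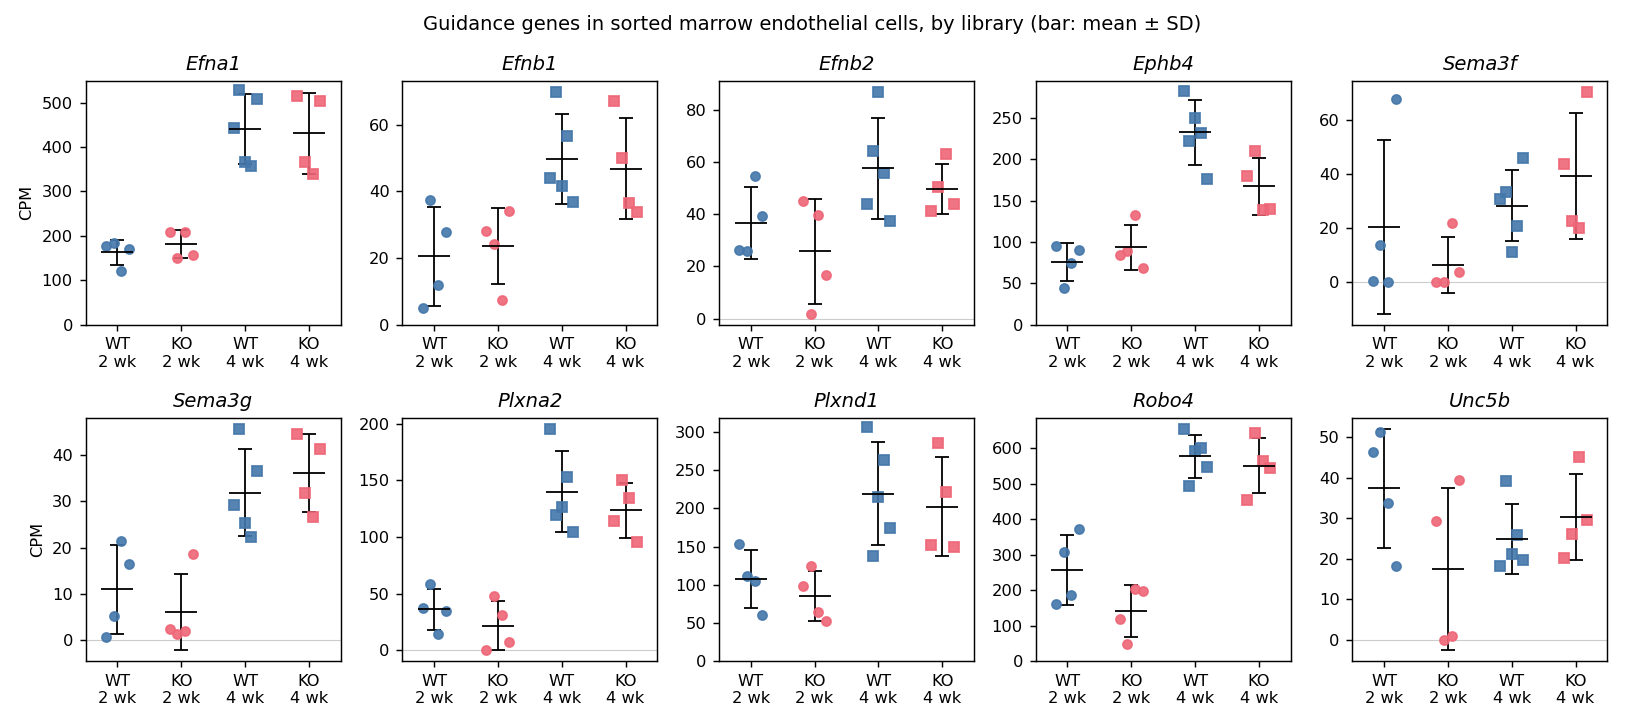
CPM of the 10 genes in each library (vertical axes, linear) for WT (blue) and KO (red) at 2 weeks (circles) and 4 weeks (squares); the horizontal bar is the mean and the vertical bar the SD. WT and KO points overlap at both times in all 10 genes, and Efna1 and Ephb4 lie higher at 4 weeks than at 2 weeks.

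The stretches upstream of Efna1, Efnb2 and Ephb4 are shown because Efna1 and Ephb4 are the genes called between times, Efnb2 encodes the ligand of Ephb4, and all 3 hold the letters GGCGCC. This motif is a palindrome, read the same on both strands, and is the GC-rich element known to be bound by SMAD1 and SMAD5, which signal below the receptor complex that includes Endoglin. Each run is the 250 bases before a RefSeq start on GRCm38.p6, 5′ to 3′ on the strand of the gene, with GGCGCC in capitals. The runs of Efnb2 and Ephb4 lie just outside the annotated gene, and that of Efna1 lies within the span of the Efna1 gene. The window at the outer start of Efna1 does not hold GGCGCC and is not printed.
Efna1 (chr3:89279646-89279895, minus strand): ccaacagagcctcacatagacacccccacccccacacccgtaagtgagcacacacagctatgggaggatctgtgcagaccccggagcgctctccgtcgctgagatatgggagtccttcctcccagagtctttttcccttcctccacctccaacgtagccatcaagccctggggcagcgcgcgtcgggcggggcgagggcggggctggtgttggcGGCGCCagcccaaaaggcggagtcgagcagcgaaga
Efnb2 (chr8:8661243-8661492, minus strand): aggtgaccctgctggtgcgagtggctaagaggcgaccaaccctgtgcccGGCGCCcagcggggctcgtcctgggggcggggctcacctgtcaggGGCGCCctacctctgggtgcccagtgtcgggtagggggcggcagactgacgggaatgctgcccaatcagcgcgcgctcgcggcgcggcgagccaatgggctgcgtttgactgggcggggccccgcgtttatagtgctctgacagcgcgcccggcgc
Ephb4 (chr5:137349859-137350108, plus strand): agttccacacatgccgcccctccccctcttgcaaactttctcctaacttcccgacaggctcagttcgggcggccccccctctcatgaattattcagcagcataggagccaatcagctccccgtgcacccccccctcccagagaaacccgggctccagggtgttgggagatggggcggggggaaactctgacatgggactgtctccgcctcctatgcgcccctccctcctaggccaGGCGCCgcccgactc
The match begins 36 bases before the start in Efna1, 201 and 156 bases before it in Efnb2, and 15 bases before it in Ephb4. RefSeq windows were given for 9 of the 10 genes, each of 300 bases (250 before and 50 after the start), and Efna1 has 2, making 10 windows. GGCGCC was in 4 of the 10 (40%), the fourth being Plxna2, and in 11.9% of the 32851 windows of all genes. These windows are rich in G and C, at 50.3% to 72.3%, and no factor's binding was measured.

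The other motifs were searched on both strands in the same windows. CACCC, the core bound by KLF factors, was in 8 of 10 windows (80%), from 7 genes, against 57.5% of all windows. TGGGAA, the core bound by RBPJ, the Notch effector, was in 2 of 10 (20%) against 25.6%, in Efnb1 and Sema3g. GGAA, the ETS core, was in 9 of 10 (90%) against 96%, and every TGGGAA holds a GGAA.

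Efna1, ephrin-A1, a membrane-anchored ligand of EphA receptors, was the most abundant of the 10 per kb of exon and had the lowest coefficient of variation at 2 weeks, 17.2% in WT and 17.6% in KO. At 2 weeks it stood at 177, 183, 122 and 170.2 CPM in WT f1, f4, m2 and m3, and at 208, 149, 209 and 158 CPM in KO f1, f4, m2 and m3. At 4 weeks it stood at 443, 528, 365, 357 and 507 CPM in WT f, f3, m1, m2 and m3, and at 514, 365, 339 and 503 CPM in KO f2, m1, m2 and m3. All 9 libraries of 4 weeks were above all 8 of 2 weeks, while WT and KO overlapped at each time. The log2 fold change in KO was 0.15 ± 0.21 (SE) at 2 weeks and 0.03 ± 0.19 at 4 weeks, with 95% intervals of -0.36 to 0.66 and -0.40 to 0.45 (edgeR, adjusted p = 1 for both). Without KO m2 and m3, the libraries with neutrophil transcripts, the 2-week value was -0.05.

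Efnb1, ephrin-B1, a transmembrane ligand of EphB receptors, was encoded on chromosome X and was scattered at 2 weeks. Its 2-week levels were 4.975, 37.5, 11.9 and 27.9 CPM in WT f1, f4, m2 and m3 and 28.1, 24.3, 7.47 and 34.2 CPM in KO f1, f4, m2 and m3. At 4 weeks they were 44.0, 69.8, 41.5, 56.5 and 36.8 CPM in WT f, f3, m1, m2 and m3 and 67.0, 49.99, 36.4 and 33.9 CPM in KO f2, m1, m2 and m3. WT f1 and KO m2 were low at 2 weeks, and the genotypes overlapped at both times. Its KO log2 fold change was 0.20 ± 0.997 (SE) at 2 weeks and -0.02 ± 0.23 at 4 weeks (edgeR, adjusted p = 1 for both), and the 4-week 95% interval ran from -0.56 to 0.51. The 2-week direction turned without KO m3 (-0.34) or WT f1 (-0.15), and the value was 0.90 without WT f4.

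Efnb2, ephrin-B2, the arterial ligand, had levels near those of Efnb1. WT f1, f4, m2 and m3 held 26.2, 26.1, 54.8 and 39.4 CPM at 2 weeks, and KO f1, f4, m2 and m3 held 45.0, 1.95, 39.8 and 16.8 CPM. WT f, f3, m1, m2 and m3 held 43.8, 64.4, 86.7, 55.9 and 37.4 CPM at 4 weeks, and KO f2, m1, m2 and m3 held 41.2, 50.4, 63.0 and 43.9 CPM. KO f4, from 66 counts, and KO m3 were below every WT library at 2 weeks, while KO f1 and m2 were within the WT range, and the genotypes overlapped at 4 weeks. The KO log2 fold changes were -0.46 ± 0.94 (SE) at 2 weeks and -0.24 ± 0.27 at 4 weeks (edgeR, adjusted p = 1 for both). In the 2-week value, leaving out KO f1 gave -1.715 and leaving out KO f4 gave -0.10. The 4-week value was -0.01 without WT m1 and -0.415 without WT m3.

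Ephb4, the venous receptor kinase for ephrin-B2, showed the lowest p-value of the 10 in KO at 4 weeks. WT f, f3, m1, m2 and m3 held 282, 222, 249.9, 232 and 175 CPM at 4 weeks, and KO f2, m1, m2 and m3 held 180.1, 209.9, 139 and 139 CPM. KO m2 and m3 were below every WT library, and KO f2 and m1 lay between the lowest 2 WT libraries, m3 and f3. The means were 232 ± 39.2 CPM (SD, n = 5) and 167 ± 34.5 CPM (SD, n = 4), and the log2 fold change was -0.43 ± 0.17 (SE, 95% interval -0.81 to -0.04). By p-value it ranked 257 of 15209 genes, of which 2.77% had an unadjusted p under 0.05 as it did, and its adjusted p was 1 (edgeR). The value stayed between -0.57 and -0.35 when single libraries were left out.

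At 2 weeks Ephb4 did not lie lower in KO. WT f1, f4, m2 and m3 held 95.4, 44.8, 74.1 and 90.0 CPM and KO f1, f4, m2 and m3 held 83.7, 88.9, 132 and 68.7 CPM. The log2 fold change was 0.28 ± 0.35 (SE, 95% interval -0.54 to 1.11, edgeR, adjusted p = 1), with 0.09 when KO m2 and 0.555 when WT f1 was left out. The difference between the 4-week and 2-week effects was -0.77 ± 0.37 (SE) with adjusted p = 0.527 in the edgeR fit of all libraries, so the effects were not shown to differ. The exons of Ephb4 share 33 bases with Zan on the opposite strand, and the strand setting of the counting is not given in the sources used here.

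The ligand Efnb2 was lower per length than its receptor Ephb4 in every library. The ratio of Efnb2 to Ephb4 in CPM per kb of exon was 0.186 to 0.5001 in the 2-week WT libraries and 0.0148 to 0.364 in the 2-week KO libraries. At 4 weeks WT gave 0.105 to 0.235 and KO gave 0.155 to 0.308. Ranges of the genotypes overlapped at both times. In bulk libraries a ratio like this mixes all vessel types of the sort, and fewer cells of a type and less RNA per cell cannot be told apart, here or for any level below.

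Sema3f, a secreted ligand acting mainly with neuropilin-2, gave 0.211, 13.7, 0 and 67.7 CPM in WT f1, f4, m2 and m3 at 2 weeks and 0, 0, 21.8 and 3.49 CPM in KO f1, f4, m2 and m3. In 3 of these 8 libraries no count was seen, at floors of 0.0921, 0.112 and 0.0884 CPM in WT m2, KO f1 and KO f4, and none of the 9 libraries of 4 weeks fell to 3 counts. Of the 1512 other genes of like 4-week WT level (0.8 to 1 / 0.8 of it), 65.1% also had a 2-week library with at most 3 counts. The fitted 2-week KO log2 fold change of -5.33 ± 4.39 (SE, edgeR, adjusted p = 1) rests on these zeros, and its 95% interval ran from -15.7 to 5.07. It was -8.33 without WT m3 and -2.91 without WT f4, and alternatives other than single libraries left out gave -10.89 to -0.46.

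At 4 weeks Sema3f was detected throughout, at 30.9, 33.1, 10.9, 20.7 and 45.9 CPM in WT f, f3, m1, m2 and m3 and 43.6, 22.7, 19.9 and 70.3 CPM in KO f2, m1, m2 and m3. Genotypes overlapped, with KO m3 the highest, and the log2 fold change was 0.54 ± 0.51 (SE, edgeR, adjusted p = 1). Without KO m3 it was -0.01.

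Sema3g, a class 3 semaphorin known from arterial endothelium, gave 0.790, 5.21, 21.5 and 16.6 CPM in WT f1, f4, m2 and m3 at 2 weeks and 2.43, 1.44, 2.12 and 18.6 CPM in KO f1, f4, m2 and m3. At 4 weeks WT f, f3, m1, m2 and m3 held 29.2, 45.7, 25.4, 22.3 and 36.7 CPM and KO f2, m1, m2 and m3 held 44.6, 31.8, 26.6 and 41.4 CPM. All 4 KO values of 2 weeks lay within the WT range, with m3 above the other KO libraries and WT f1 below them all, and at 4 weeks the genotypes were interleaved. The KO log2 fold changes were -0.73 ± 1.28 (SE) and 0.26 ± 0.26 at 2 and 4 weeks (edgeR, adjusted p = 1 for both). The 2-week value was -1.52 without KO m3 and -0.08 without WT f4.

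Plxna2, a plexin that transmits class 3 semaphorin signals, ranged widely at 2 weeks. WT f1, f4, m2 and m3 held 37.8, 58.6, 14.4 and 34.6 CPM and KO f1, f4, m2 and m3 held 0.412, 47.6, 31.2 and 7.67 CPM, the first from 11 counts. At 4 weeks WT f, f3, m1, m2 and m3 held 196, 119.8, 127, 153 and 105 CPM and KO f2, m1, m2 and m3 held 114, 151, 135 and 95.3 CPM. Genotypes overlapped at both times. Its log2 fold change in KO was -0.68 ± 1.26 (SE) at 2 weeks, or -0.21 without KO f1 and -1.84 without KO f4, and -0.13 ± 0.20 at 4 weeks (edgeR, adjusted p = 1 for both).

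Plxnd1, the plexin of endothelium that restrains sprouting in response to semaphorin 3E, was detected at similar levels in both genotypes. At 2 weeks WT f1, f4, m2 and m3 held 154, 112, 105 and 61.1 CPM and KO f1, f4, m2 and m3 held 98.2, 125, 64.5 and 52.6 CPM. At 4 weeks WT f, f3, m1, m2 and m3 held 306, 137, 215, 263 and 174 CPM and KO f2, m1, m2 and m3 held 152, 285, 221 and 150.0 CPM. For Plxnd1 the KO effect on the log2 scale was -0.37 ± 0.27 (SE) at 2 weeks and -0.13 ± 0.27 at 4 weeks (edgeR, adjusted p = 1 for both). Spread within a genotype was the larger part at 4 weeks, where WT alone spanned 137 to 306 CPM.

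Robo4, an endothelial Robo family receptor that limits leakage, had the lowest p-value of the 10 in KO at 2 weeks. WT f1, f4, m2 and m3 held 162, 308, 188 and 372 CPM and KO f1, f4, m2 and m3 held 120.2, 48.4, 204 and 198 CPM. KO f1 and f4 were below every WT library, and KO m2 and m3, the libraries with neutrophil transcripts, lay within the WT range. Means were 257.5 ± 99.4 CPM and 143 ± 73.5 CPM (SD, n = 4 each), and the log2 fold change was -0.99 ± 0.43 (SE, 95% interval -2.02 to 0.04, edgeR, adjusted p = 1, rank 319 of 10477 genes). It was -1.52 without m2 and m3, on 2 KO libraries, and -0.69 without KO f4.

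At 4 weeks Robo4 stood at 656, 494, 593, 599.7 and 548 CPM in WT f, f3, m1, m2 and m3 and 454, 642, 564 and 545 CPM in KO f2, m1, m2 and m3. It was the tightest of the 10 there, with a coefficient of variation of 10.5% in WT and 14.0% in KO. The KO log2 fold change was -0.08 ± 0.12 (SE, 95% interval -0.34 to 0.19, edgeR, adjusted p = 1). Averaged over both times it was -0.53 ± 0.24 (SE, edgeR, adjusted p = 0.426), and the effects at 4 and 2 weeks differed by 0.76 ± 0.46 (adjusted p = 0.738).

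Unc5b, an endothelial netrin receptor, was the only one of the 10 whose WT mean was lower at 4 than at 2 weeks. At 2 weeks WT f1, f4, m2 and m3 held 46.3, 51.3, 33.7 and 18.3 CPM and KO f1, f4, m2 and m3 held 29.4, 0, 0.842 and 39.4 CPM. At 4 weeks WT f, f3, m1, m2 and m3 held 18.2, 39.3, 21.1, 25.9 and 19.8 CPM and KO f2, m1, m2 and m3 held 20.3, 26.1, 45.2 and 29.6 CPM. KO f4 had no count at 2 weeks, at a floor of 0.0884 CPM, and KO m2 had 25, while the other 2 KO libraries were within the WT range. Of 1448 other genes of such a like level, 68.9% had a 2-week library with at most 3 counts. The KO log2 fold change was -1.03 ± 1.91 (SE) at 2 weeks and 0.29 ± 0.35 at 4 weeks (edgeR, adjusted p = 1 for both). The 2-week value was -2.82 when KO m3 was left out and -0.48 when KO f4 was. At 4 weeks it was 0.07 when KO m2 was left out and 0.605 when KO f2 was. Alternatives other than single libraries left out gave -3.50 to -0.97 at 2 weeks and 0.03 to 0.32 at 4 weeks.

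Counted together, 0 of the 10 genes were called in KO at 2 weeks, and all 10 had overlapping genotypes. The same test called 0% of 10477 genes, 2.63% had an unadjusted p under 0.05, and 3.36% had genotypes that did not overlap. The log2 fold change was above 0 in 3 of the 10 and below 0 in 7, against 53.1% of all genes below 0, with a median of -0.57 against -0.06 over all genes tested. At 4 weeks 0 of 10 were called, against 0% of 15209 genes, and all 10 overlapped, against 1.19% of genes that did not. There 4 were above 0, against 51.3% of all genes, and 6 below, with a median of -0.05 against 0.01 over all genes. The joint fit called none of the 10 for the mean over both times (0.0828% of 15703 genes) or for the difference between times (0.0764%).

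**Figure D2:**
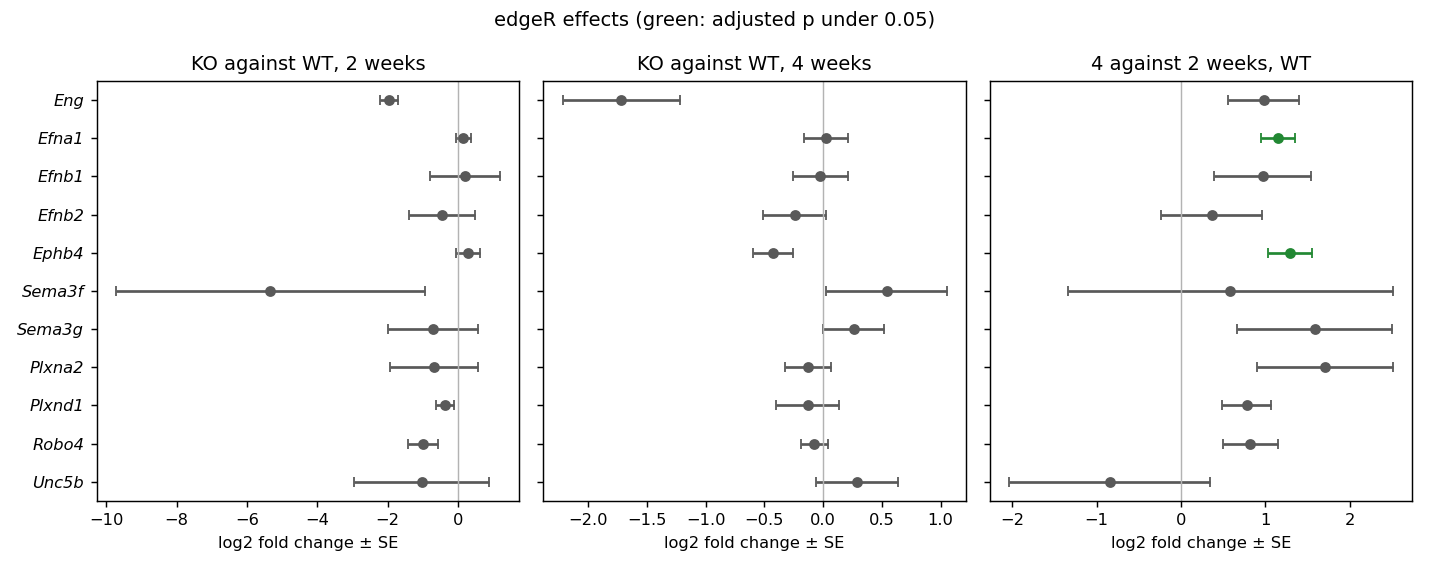
Log2 fold change with its SE (horizontal axes, of different range in each panel) from edgeR for Eng and the 10 genes in KO against WT at 2 weeks, at 4 weeks, and in WT at 4 against 2 weeks; green marks an adjusted p under 0.05. Efna1 and Ephb4 are the green points, both in the third panel, and Sema3f has the widest bar at 2 weeks.

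How far these intervals reach differs between the times. The biological coefficient of variation was 119% at 2 weeks and 48.8% at 4 weeks (the square root of edgeR's median gene-wise dispersion). At 4 weeks the 95% intervals of Efna1, Efnb1, Plxna2 and Robo4 lay within -0.58 and 0.51 on the log2 scale. At 2 weeks those of Efnb1, Efnb2, Sema3f, Sema3g, Plxna2, Robo4 and Unc5b reached down to -2.02 or lower.

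In WT, 9 of the 10 genes were higher at 4 than at 2 weeks, against 63.5% of all genes, and 2 were called, against 6.92% of 15703 genes. Efna1 rose by a log2 of 1.15 ± 0.20 (SE, adjusted p = 0.00366) and Ephb4 by 1.29 ± 0.26 (SE, adjusted p = 0.00989) in the edgeR fit of all libraries. For Efna1 the 5 WT libraries of 4 weeks held 357 to 528 CPM and the 4 of 2 weeks 122 to 183 CPM. For Ephb4 the ranges were 175 to 282 CPM and 44.8 to 95.4 CPM. The median gene was itself higher by 0.42, so these were 0.73 and 0.87 above the median gene, and both lower 95% limits, 0.72 and 0.73, were above 0.42. That median depends on the setting: it was 0.003 with at least 10 counts in every library, 0.737 without the low-count filter and 1.378 with limma voom. Under voom Efna1 was higher by 1.159, below that median, and Ephb4 by 1.442, above it.

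A further 3 genes did not overlap between times in WT and were not called. Plxna2 was higher by 1.71 ± 0.81 (SE, adjusted p = 0.229), at 105 to 196 CPM against 14.4 to 58.6 CPM. Sema3g was higher by 1.58 ± 0.92 (adjusted p = 0.368), at 22.3 to 45.7 CPM against 0.790 to 21.5 CPM. Robo4 was higher by 0.82 ± 0.32 (adjusted p = 0.142), at 494 to 656 CPM against 162 to 372 CPM. With Efna1 and Ephb4 that made 5 of 10 without overlap, against 18.1% of all genes. Plxna2 was called when KO f1 of 2 weeks was left out of the joint fit (1.75, edgeR, adjusted p = 0.025).

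The remaining genes overlapped between times in WT: Efnb1 (0.97 ± 0.57), Plxnd1 (0.78 ± 0.29), Sema3f (0.59 ± 1.92), Efnb2 (0.36 ± 0.59) and Unc5b (-0.85 ± 1.19), as log2 fold change ± SE in the edgeR fit. The median of the 10 was 0.89 against 0.42 for all genes, and whether it lies above the typical gene depends on the setting as given for Efna1. Since genes detected and the mitochondrial share differ between the same libraries, their part in the rise of Efna1 and Ephb4 was not tested. Among counts that exclude mitochondrial genes the WT means of Efna1 were 218 CPM at 2 weeks and 472 CPM at 4 weeks, and those of Ephb4 102 and 249 CPM.

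Per kb of exon, the order in WT at 4 weeks was led by Efna1 at 240.5 ± 43.0 CPM per kb (SD, n = 5), Robo4 at 109 ± 11.4, Ephb4 at 50.1 ± 8.45 and Plxnd1 at 30.0 ± 9.21. Each of these exceeded the next in 5 of 5 libraries. Efnb1 followed at 14.4 ± 3.88, below Plxnd1 in 4 of 5 libraries. Efnb2 (8.41 ± 2.82), Plxna2 (8.15 ± 2.08), Sema3g (7.01 ± 2.07), Sema3f (5.44 ± 2.54) and Unc5b (3.97 ± 1.37) were close, and neighbours among them did not differ beyond their spread. KO at 4 weeks had the same first 5 genes in the same order. At 2 weeks Efna1, Robo4, Ephb4 and Plxnd1 again led in both genotypes, with WT means of 89.0, 48.6, 16.4 and 14.8 CPM per kb, and Ephb4 exceeded Plxnd1 in 2 of 4 WT libraries.

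**Figure D3:**
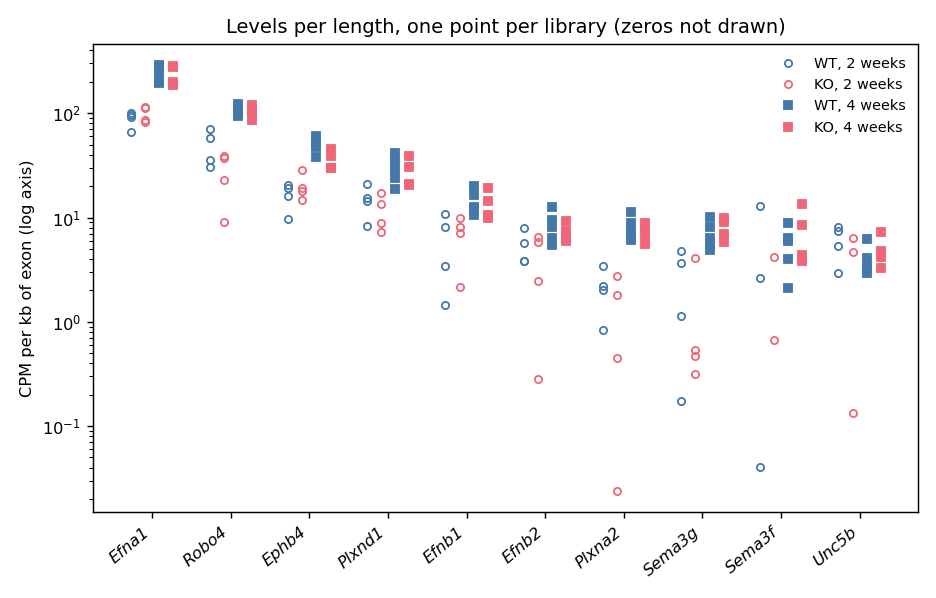
CPM per kb of exon (vertical axis, logarithmic) of the 10 genes in order of their WT mean at 4 weeks, with 1 point per library for WT (blue) and KO (red) at 2 weeks (open circles) and 4 weeks (filled squares); libraries at 0 are not drawn. Efna1, Robo4, Ephb4 and Plxnd1 lead at both times, and the points of 2 weeks spread more widely among the less abundant genes.

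Among the 4-week libraries several of the genes differed between 2 sets of libraries, noticed in the data, that each hold both genotypes and differed in Il6st, a gene of the sinusoidal and venous list. The sinusoidal and venous list, without Ephb4, summed to 442 to 670 CPM in WT f3, WT m3, KO f2 and KO m3, and to 919 to 1183 CPM in WT f, m1 and m2 and KO m1 and m2. Of its 9 genes, Il6st was at 106 to 197 CPM in those 4 libraries and 447 to 616 CPM in the other 5, and Stab2, a scavenger receptor of sinusoids, at 12.53 to 37.7 CPM and 16.4 to 53.1 CPM. Il6st carries the difference in the sum: without it the list summed to 336.5 to 542 CPM in the 4 and 435 to 604 CPM in the other 5, which overlap. Nrp2 was also lower in the 4, at 91.0 to 105.6 CPM against 106.5 to 172 CPM, while Stab1 (70.4 to 107 and 101.5 to 209 CPM) and Flt4 (37.4 to 53.1 and 47.8 to 77.6 CPM) overlapped. Nr2f2 and Vcam1 tended the other way with overlap, Nr2f2 at 23.5 to 54.0 CPM in the 4 and 13.9 to 35.2 CPM in the other 5, and Vcam1 at 91.4 to 189 and 89.2 to 143 CPM. Clec4g was at 0 in all 9 libraries and Lyve1 at no more than 1.93 CPM. Kdr, the main VEGF receptor, was at 416 to 626 CPM in the 4 and 1646 to 2179 CPM in the other 5. Tek, also of the endothelial list, was likewise lower, at 110 to 272 CPM against 539 to 734 CPM. Emcn of that list went the other way, at 965 to 1207 CPM against 610 to 764 CPM. Esam did too, at 2131 to 2315 CPM against 1540 to 2023 CPM, and the rest of the list overlapped between the sets. Markers of the arterial list summed to 4849 to 5445 CPM in the 4 and 4660 to 5294 CPM in the other 5. Genes of that list differed although the sums overlapped. Ly6a was higher in the 4, at 2683 to 2990 CPM against 1930 to 2326 CPM. Nrp1 tended the other way with overlap, at 829 to 1291 CPM against 1261 to 1718 CPM. The mesenchymal and perivascular list summed to 1421 to 1898 CPM in the 4 and 3426 to 5361 CPM in the other 5, and its pericyte gene Rgs5 stood at 284 to 459 CPM and 1028 to 2336 CPM. The erythroid list summed to 1125 to 2504 CPM in the 4, and to 172 to 621 CPM in the others except KO m2, at 2916 CPM.

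Efna1 was at 503 to 528 CPM in WT f3, WT m3, KO f2 and KO m3 and at 339 to 443 CPM in the other 5. Sema3g was at 36.7 to 45.7 CPM against 22.3 to 31.8 CPM, and Sema3f at 33.1 to 70.3 CPM against 10.9 to 30.9 CPM. Plxnd1 and Plxna2 went the other way, at 137 to 174 CPM against 215 to 306 CPM and at 95.3 to 119.8 CPM against 127 to 196 CPM. Robo4 was at 454 to 548 CPM against 564 to 656 CPM. Ephb4 overlapped between the sets, at 139 to 222 CPM against 139 to 282 CPM, as did Efnb1 (33.9 to 69.8 and 36.4 to 56.5 CPM). Efnb2 (37.4 to 64.4 and 43.8 to 86.7 CPM) and Unc5b (19.8 to 39.3 and 18.2 to 45.2 CPM) overlapped too. Marker genes such as Kdr, Il6st, Emcn, Ly6a and Rgs5 separated the same libraries, so the separation is not particular to the guidance genes. The sets are not groups of the study and were seen in these values, so no test was made and no share of all genes is set beside them, and the part of the vessel, perivascular and erythroid markers in these levels was not tested. With the log2 sum of the list, Il6st included, as an added term, the 4-week KO log2 fold change of Ephb4 was -0.37 (edgeR, adjusted p = 1).

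**Figure D4:**
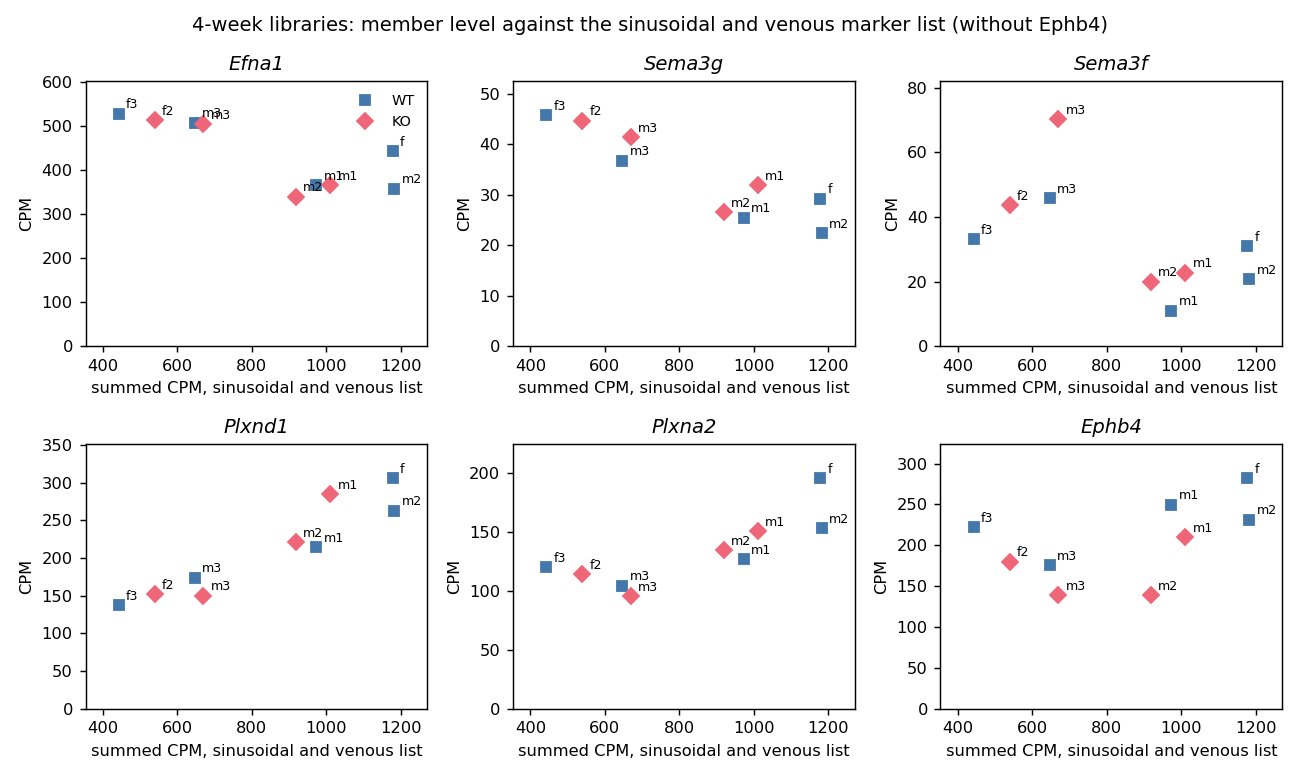
CPM of 6 of the genes (vertical axes) against the summed CPM of the sinusoidal and venous marker list without Ephb4 (horizontal axes) in the 9 libraries of 4 weeks, WT as blue squares and KO as red diamonds, each named by its replicate. WT f3, WT m3, KO f2 and KO m3 form the left set in each panel, a separation carried by Il6st, with Efna1, Sema3g and Sema3f above and Plxnd1 and Plxna2 below the other 5 libraries.

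Likeness was measured as Pearson's r of log2 CPM over the 9 libraries of 4 weeks after removing group means, among about 4710 abundant genes, and describes these libraries and their sets only. Efna1 and Sema3g were the pair most alike (r = 0.954), followed by Plxnd1 and Robo4 (0.898), and Efnb2 and Sema3f were the least alike (-0.805). Beyond the 10, the most similar gene was Psma5 for Efna1 (0.988), Stard8 for Plxnd1 (0.985), Ptpn14 for Ephb4 (0.974) and Marc2 for Sema3f (0.974). It was Cstf2 for Plxna2 (0.965), Phc2 for Sema3g (0.962), Sept8 for Robo4 (0.958), Eif4g3 for Efnb1 (0.929), Eef1a1 for Unc5b (0.925) and Ndufa6 for Efnb2 (0.892).

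Of 94 other genes of the guidance pathways (ephrins, Ephs, semaphorins, plexins, neuropilins, Slits, Robos, netrins and their intracellular mediators), 33 could be tested at 2 weeks and 58 at 4 weeks, and none was called in KO at either time. At 2 weeks 11 were above 0 and 22 below, with a median log2 of -0.38 against -0.06 over all genes. At 4 weeks 24 were above 0 and 34 below, with a median of -0.07 against 0.01. Of the 13 Eph receptors other than Ephb4, 4 passed the filter on low counts at each time, and of the 5 other ephrins 2 were tested at 4 weeks and 0 at 2 weeks.

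Sema6a, a transmembrane semaphorin that binds A-type plexins, was lower in KO at 2 weeks without overlap, as 1 of 2 pathway genes outside the 10 whose genotypes did not overlap there, against 3.36% of all genes. WT libraries held 31.0 to 120.5 CPM (mean 75.3 ± 40.3, SD, n = 4) and KO libraries 5.06 to 28.3 CPM (mean 21.1 ± 10.8, SD, n = 4). The log2 fold change was -1.70 ± 0.62 (SE, edgeR, adjusted p = 1) at 2 weeks and -0.37 ± 0.28 (adjusted p = 1) at 4 weeks, where the genotypes overlapped. Over both times it was -1.09 ± 0.32 (edgeR, adjusted p = 0.284; 0.00995 with DESeq2, which called 1396 of the 15703 genes for this mean). The other was Nck2, an adaptor like Nck1, named after its values were seen: it was higher in KO at 2 weeks, at 37.1 to 114 CPM against 3.08 to 35.7 CPM in WT, with a log2 fold change of 1.51 ± 0.86 (SE, edgeR, adjusted p = 1).

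Nrp1, neuropilin-1, the co-receptor shared by class 3 semaphorins and VEGF, was at 4 weeks the most abundant of the pathway genes outside the 10, while at 2 weeks Sdcbp was higher (804 against 432 CPM in WT and 774 against 408 CPM in KO). At 4 weeks the mean of Nrp1 was 1473 ± 208 CPM (SD) over 5 WT libraries and 1100.0 ± 273 CPM (SD) over 4 KO libraries, with overlapping ranges of 1253 to 1718 and 829 to 1399 CPM. The log2 fold change was -0.44 ± 0.17 (SE, edgeR, adjusted p = 1), close in size to that of Ephb4. At 2 weeks it was -0.09 ± 0.26 (adjusted p = 1).

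Among the 58 tested pathway genes 4 were called higher at 4 than at 2 weeks in WT and 0 lower, against 5.03% and 1.88% of all genes. Nrp1 rose by a log2 of 1.44 ± 0.22 (SE, edgeR, adjusted p = 0.00168), from 342 to 558 CPM to 1253 to 1718 CPM. Robo2, a Slit receptor, had no count in any of the 8 libraries of 2 weeks and stood at 3.31 to 13.9 CPM in WT at 4 weeks (adjusted p = 0.0027). Plxnb2, a receptor for class 4 semaphorins, had no count in any WT library of 2 weeks and 5.59 to 44.8 CPM at 4 weeks (adjusted p = 0.0464), a call lost in 14 alternatives (adjusted p up to 0.0954). Mical1, an oxidase of actin below plexins, was at 0 to 0.0526 CPM and 13.2 to 41.0 CPM (adjusted p = 0.0221), a call lost in 4 alternatives (adjusted p up to 0.0668). For these 3 the 2-week WT level was at or below the floor, so the fitted fold is not given. They passed the filter on low counts through the 4-week libraries, where they are high. The tally of 4 higher and 0 lower was therefore partly set by that filter, which also acts on the shares of all genes. Of the 4 only Nrp1 was well above the floor at both times.

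After Nrp1, the pathway genes outside the 10 with the highest level per kb in WT at 4 weeks were Sdcbp, Nck1, Rras, Rnd1 and Vasp. Sdcbp, syntenin, which binds the tails of B-type ephrins, was at 102 ± 17.1 CPM per kb and Nck1, an adaptor used by Eph and Robo signalling, at 62.8 ± 10.8 CPM per kb (SD, n = 5). Between 2 and 4 weeks in WT, Sdcbp had a log2 difference of -0.475 ± 0.158 (SE, edgeR, adjusted p = 0.0862), and 13 of the 58 pathway genes were below 0. Plxna1, a plexin for class 3 and class 6 semaphorins, was at 0 to 0.399 CPM and 6.19 to 29.1 CPM at those times (adjusted p = 0.0741), while Efna3 and Flrt3 stayed under 6.07 CPM at 4 weeks (adjusted p = 0.117 and 0.123). DESeq2 called Plxna1, Efna3 and Flrt3 between times (adjusted p = 5.8e-05, 4.35e-18 and 0.00696), among 2938 of 15703 genes that it called there. In WT at 2 weeks none of these genes exceeded 0.399 CPM. Other pathway genes with an unadjusted p under 0.05 for the mean over both times, as 11% of all genes had, were Sema5a, Plxnb2, Robo3, Efna3, Mical1 and Plxna4. In each of these 6 the 2-week signal came from few libraries, with at least 2 of the 4 KO libraries at 0 counts, and adjusted p ran from 0.229 to 0.445 (edgeR). DESeq2 called 4 of them, with adjusted p of 5.26e-05 for Sema5a, 7.09e-14 for Plxnb2, 4.37e-09 for Efna3 and 0.0272 for Plxna4, among the 1396 of 15703 genes it called. Sema5a also had an unadjusted p under 0.05 at 4 weeks, at 0 to 2.37 CPM in WT and 0 to 4.395 CPM in KO (adjusted p = 1).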

How the data were processed

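Each library has a table of raw counts per gene, deposited by the authors with no normalization that the values show. Per the submitters' processing notes, cutadapt, STAR and HTSeq 0.6.1p1 were named, with GRCm38 and mm10; the annotation release and strand setting are not given in the sources used here. Symbols came from GENCODE M21, which matched 49326 of 49585 identifiers (259 unmatched). The members and gene lists were chosen with earlier results of these data known. No pair of libraries of a group agreed within counting noise.

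Counts were tested with edgeR 4.0.16 (R 4.3.3; filterByExpr, TMM, robust quasi-likelihood, Benjamini-Hochberg over all genes tested, threshold 0.05). KO was compared with WT within a time by a model with genotype and sex; the joint fit of 17 libraries with 4 group means and sex gave the difference between effects, their mean and the WT time effect. SEs were derived from the F statistics. CPM uses the library total, and CPM per kb the merged exon length. The fits were tested on simulated counts.

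Named were the members, Eng, pathway genes with an unadjusted p under 0.05 in KO against WT, up to 8 with the smallest p between times in WT, the 6 highest in level, and the gene most like each member (prior count 2, mean log2 CPM at least 5). Alternatives were other scalings and filters, DESeq2 1.42.0, limma 3.58.1 voom, no sex term, a replicate block, a joint fit, libraries left out and, added after the data were seen, a sinusoidal marker term.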

Additional observations from a re-analysis of the deposited data

Results flagged for a closer look

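Of the 40 sets of values (10 genes in 4 groups), 2 held a library far from the others of its group; chance alone gives about 1 in 20. Sema3f stood at 21.81 CPM in the 2-week KO library m2, where the other 3 KO libraries held 0 to 3.49 CPM. Sema3g stood at 18.56 CPM in the 2-week KO library m3, where the others held 1.44 to 2.43 CPM. Both libraries are the ones with neutrophil transcripts (list sums of 4162 and 3150 CPM), and the part of those transcripts in either level was not tested. Both values are within the range of the WT libraries of 2 weeks, 0 to 67.7 CPM for Sema3f and 0.790 to 21.5 CPM for Sema3g.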

How the results depend on the processing

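The calls of Efna1 and Ephb4 between times in WT held under every alternative run, single libraries left out included, with adjusted p of at most 0.0332 and 0.0352. No alternative called a member in KO against WT. Eng was called in KO at 2 weeks with DESeq2 (adjusted p = 1.63e-13) and under no alternative at 4 weeks (adjusted p = 0.381 with DESeq2). Genes called over the whole table moved more. With DESeq2 they were 149 in KO at 2 weeks, 17 at 4 weeks, 1303 for the difference, 1396 for the mean over both times and 2938 for WT between times, against 0, 0, 12, 13 and 1086. With limma voom they were 12 at 2 weeks, 5 for the difference and 7 for the mean; in 1 fit of all libraries 31 at 2 weeks. Without the low-count filter they were 6 for the difference, 8 for the mean and 580 for WT between times, and with at least 10 counts in every library 0 (195 at an unadjusted p under 0.05), 3 and 639; the last split into 310 higher and 329 lower, against 790 and 296. Under that filter Sema3f and Unc5b are tested at 4 weeks but not at 2 weeks or in the joint fit. With single libraries left out, KO called 0 to 0 genes at 2 weeks and 0 to 0 at 4 weeks; the difference 7 (without WT 4-week f) to 51 (without KO 2-week m2), the mean 5 (without KO 4-week f2) to 60 (without KO 2-week m2), and WT between times 588 (without WT 4-week f) to 1261 (without KO 2-week f1). Eng over both times lost its call in 15 settings, its adjusted p reaching 0.188, while its log2 fold change stayed at -1.698 to -2.154 with libraries left out and -1.799 to -1.963 otherwise (adjusted p = 1.65e-07 with DESeq2).

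Signs changed only for values near 0 or carried by few libraries. In KO at 4 weeks Efnb1 was 0.009 with upper quartile scaling and 0.082 with voom, Efna1 -0.026 with voom, -0.024 without the sex term and -0.059 with the sinusoidal term, and Plxnd1 0.026 with the latter. At 2 weeks Efnb1 was -0.115 with voom and Efna1 -0.045 without KO m2 and m3. With voom the difference between effects was 0.112 for Efnb1 and -0.164 for Eng, and the mean of Ephb4 was 0.068. Leaving out single libraries gave ranges across 0 in KO at 4 weeks for Efna1 (-0.111 to 0.150), Efnb1 (-0.146 to 0.111), Plxnd1 (-0.313 to 0.043), Robo4 (-0.140 to 0.024) and Sema3f (-0.009 to 1.005), and at 2 weeks for Efnb1 (-0.341 to 0.897). The same held for the difference in Efnb1 (-0.628 to 0.309), Efnb2 (-0.151 to 0.781), Sema3g (-0.063 to 2.428) and Eng (-0.488 to 0.469), and for the mean in Efnb1 (-0.171 to 0.277), Ephb4 (-0.195 to 0.000), Sema3f (-2.095 to 0.303), Efna3 (-0.108 to 4.616) and Mical1 (-1.364 to 3.117). Without mitochondrial genes the 2-week means of Efna1 were 217.9 CPM in WT and 244.7 CPM in KO, and of Ephb4 102.2 and 126.5 CPM; the other 36 means and all 40 with TMM scaling moved by less than 1 SD.

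The libraries were not treated as paired by replicate number, since not every same-numbered pair had a correlation of deviations over 0.1. Those correlations were -0.0242 to 0.0498 at 2 weeks and 0.0549 to 0.3761 at 4 weeks, against -0.0629 to 0.0457 and -0.3565 to 0.4154 for pairs of different number, and WT m2 at 4 weeks correlated more with KO m1 (0.0789) than with KO m2. The fit with a replicate block called 0 genes at 2 weeks and 0 at 4 weeks, with 286 and 651 at an unadjusted p under 0.05 against 276 and 422 without the block.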
